A study of Homo sapiens with 6 samples.

Results

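The epidermal differentiation complex is a gene cluster at 1q21 on human chromosome 1, and its chromatin contacts were described here in the 40 kb bins of Hi-C maps that cover chr1:151480001-154000000 of hg19. The bins were chosen by position alone. The region held 63 bins of 73395 on 21 chromosomes, and all 63 were usable. It overlapped 94 protein-coding genes, of which 10 were followed singly: S100A10, S100A11, HRNR, FLG, IVL, SPRR1A, SPRR3, LOR, S100A9 and S100A8. Hi-C joins pieces of DNA that lay close together in the fixed nucleus and counts the joined pieces as contacts between their places in the genome.

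The samples were LNCaP cells, an established human prostate cancer line. They received siRNA at 20 nM, were split and transfected again midway, and were harvested 144 h after the first transfection. The siRNA pool had either no target (control siRNA) or CTCF as its target (CTCF siRNA). The control map was pooled from 2 libraries and the CTCF siRNA map from 4, of which 2 are numbered as further versions of a replicate with no word on whether they came from separate cultures. This left 1 map and 1 list of topologically associating domains (TADs) per condition. The comparison asks how the folding of the cluster differed after CTCF was depleted. An siRNA knockdown is transient and leaves some protein, the files hold no measure of the CTCF that was left, and LNCaP cells are not keratinocytes. No RNA was measured in these libraries, so whether the skin genes were silent in these cells was not measured here.

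The complex codes for most structural proteins of the cornified envelope, the cross-linked protein shell of the outer skin cells. Filaggrin, which belongs to the fused-type S100 proteins, binds keratin filaments. Involucrin, the small proline-rich (SPRR) proteins, the late cornified envelope (LCE) proteins and loricrin are cross-linked into the envelope. The S100 genes at both ends code for small proteins of a largely calcium-binding family, many of which are used far outside the skin. CTCF is a zinc-finger protein that binds a directional DNA motif, holds the cohesin complex there and is found at many borders between TADs. A TAD is a stretch of chromatin that contacts itself more than it contacts its neighbours.

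For the description the region was divided from left to right by its genes. The left flank, from CGN to THEM4, was followed by the S100A10 end with S100A10 and S100A11. Then came the fused-type genes from TCHHL1 to CRNN, the LCE genes and the SPRR genes with SMCP and IVL. The stretch from LELP1 over LOR to PGLYRP4 followed. The S100A9 end ran from S100A9 over S100A1 to SNAPIN, and the right flank from ILF2 to NUP210L. PGLYRP4 and ILF2 each crossed a limit between these parts. The skin-gene array is used here for the 32 bins from the fused-type genes to PGLYRP4, chr1:152040001-153320000, which are 1280 kb long.

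Between different bins of the region 10203 contacts were counted in the control and 57358 after CTCF siRNA, a ratio of 5.62, whereas chromosome 1 as a whole had a ratio of 3.92. Of the 1953 bin pairs of the region, 1267 held a contact in the control and 1857 after CTCF siRNA. The added coverage was uneven. Contacts per bin, relative to the median of chromosome 1, went from 0.868 to 1.45 in the left flank, from 1.54 to 2.67 in the LOR to PGLYRP4 stretch and from 1.38 to 2.59 at the S100A9 end, but only from 1.0 to 1.15 in the fused-type genes. GC content moved with this in part, at 47.7% at the S100A9 end and 41.3% in the fused-type genes. For this reason contacts between stretches were set against an expected number that took the distance and the coverage of both bins into account. Since each condition has a single pooled map, there is no replicate and no test between conditions. Every interval or SD below covers counting error only, read pairs are not counted with molecular identifiers, and a bulk map cannot tell a small difference in all cells from a large one in some.

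Short sequences are shown for the boundary bins that held a match to the CTCF core motif of 13 letters, because these are the places in the region where the sequence and the mapped borders meet. Of the 10 bins at TAD boundaries of either list, 3 held 1 match each, searched on both strands. This compares with 9.13% of the 4326 usable bins of chromosome 1 and 11 of the 63 bins of the region. The boundary bins at S100A10 and at PGLYRP3 held none. The S100A11 bin, which adjoins the S100A10 boundary bin but is not a boundary bin of either list, held 1 match, which is not printed. All 3 matches lay on the minus strand, between genes and in no exon. They are given 5′ to 3′ on that strand from the hg19 reference, with the motif in capitals.
CRNN to LCE5A boundary, first match, chr1:152432926-152432954: gcacacaaCCAGCAGGTGGCGcccaccct
CRNN to LCE5A boundary, second match, chr1:152452726-152452754: caaaatcaCCACCAGGGGGCGgagaggag
Between RAB13 and RPS27, chr1:153959371-153959399: accctgttCCACCAGGGGGCAgactgact

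Both TAD lists divided the cluster at the same kinds of places. In the control list a TAD of 440 kb (chr1:151980001-152420000) ran from S100A11 to CRNN. A TAD of 800 kb (chr1:152460001-153260000) held the LCE and SPRR genes and LOR. A TAD of 360 kb (chr1:153260001-153620000) ran from PGLYRP3 to CHTOP. The array was thus not 1 domain. It was split between the fused-type genes and the LCE genes, and its last genes, PGLYRP3 and PGLYRP4, were shared with the S100A9 end. After CTCF siRNA the corresponding TADs measured 480, 840 and 360 kb. S100A10 lay in the gap between TADs in the control list and inside the TAD of the fused-type genes in the CTCF siRNA list, at its left edge.

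Of the 6 control boundaries in the region, 1 had no CTCF siRNA boundary within 40 kb, where 47.4% of all boundaries of the control list had none. The lost boundary lay in the left flank, outside the array and its S100 ends. None of the 5 boundaries that the CTCF siRNA list placed in the region was gained, where 36.9% of that whole list were. The boundary at S100A10 moved by 40 kb, from 151980000 to 151940000, and the last one, near RPS27, moved by 40 kb as well. Those at CRNN to LCE5A, PGLYRP3 and S100A13 to S100A1 kept an edge at the same position. Where boundaries had to touch to be shared, 3 were lost and 2 gained, and with facing edges joined within 400 kb 0 were lost. The CTCF siRNA map was the deeper map, and the part of depth in these calls was not tested.

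The depth of each border was measured by the insulation value, which sets the contacts that cross a bin, over their expected number, against those within its flanks of 400 kb, as a log2 ratio. A lower value means fewer contacts across. In the control the lowest value of the region was −1.54 ± 0.10 (counting SD) in the S100A10 bin at 151960001, with 232 contacts across. That value was above only 1.70% of 44777 bins of the genome. S100A10, which codes for the partner of annexin A2, therefore sat at the deepest dip of the complex, and the neighbouring S100A11 bin had −1.25 ± 0.10.

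After CTCF siRNA these dips were much shallower. The S100A10 bin stood at −0.37 ± 0.03, a rise of 1.17 ± 0.11, which was the largest in the region and above the rise of 99.0% of bins. The S100A11 bin rose by 0.88 ± 0.10 to −0.37, the lowest value nearby in that map. The bin of the moved TAD edge, at 151920001, stood at −0.16 after CTCF siRNA. Over the genome, control boundaries that kept a partner had a median change of 0.37, with 90% of them below 0.95 (n = 1049), and those that were lost had a median of 0.60 (n = 1070). The S100A10 boundary, which kept a partner, lay above all of these 90%.

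**Figure D1:**
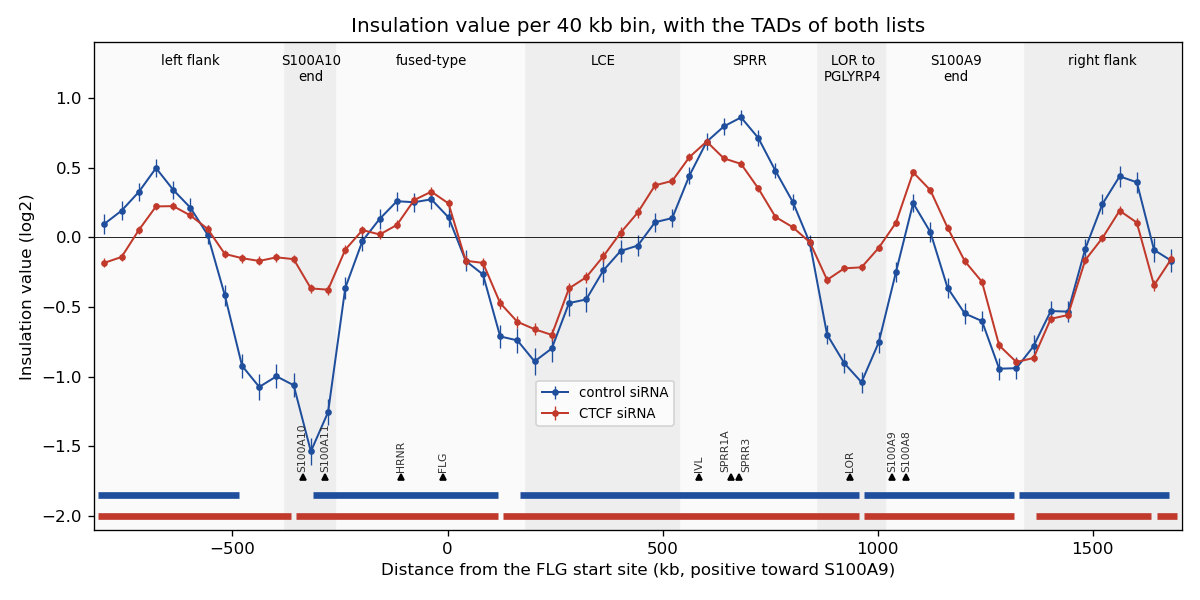
Insulation value (log2, vertical axis) of each 40 kb bin against distance in kb from the FLG start site, with counting SD as error bars, control siRNA in blue and CTCF siRNA in red. Bars at the bottom are the TADs of each list and triangles the 10 genes. The dips at S100A10 and at PGLYRP3 were shallower after CTCF siRNA, whereas those between CRNN and the first LCE genes and at S100A1 lay close together in both maps with these flanks of 400 kb. With 200 kb the bins of the first LCE genes and of S100A1 differed more between the maps.

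The right border of the array was shallower as well. In the control it was a dip over the LOR to PGLYRP4 stretch, with −0.90 at LOR and −1.04 ± 0.08 at PGLYRP3, which codes for a peptidoglycan recognition protein. After CTCF siRNA the LOR bin stood at −0.22, a rise of 0.68, and the PGLYRP3 bin at −0.21 ± 0.03, a rise of 0.82 ± 0.08. The lowest bin of this stretch in the CTCF siRNA map was the one of LELP1 and PRR9, at −0.30. The TAD lists kept their edge in the PGLYRP3 bin all the same, and its rise was within the 90% of kept boundaries that lay below 0.95.

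The inner border and the outer border of the S100A9 end differed less between the maps with flanks of 400 kb. Between CRNN, the last fused-type gene, and LCE5A, the first LCE gene, the 2 boundary bins went from −0.71 to −0.47 and from −0.74 to −0.61. These are the bins that hold the first and the second sequence printed above. The lowest value nearby went from −0.89 in the bin of LCE5A and CRCT1 to −0.70 in that of LCE3E and LCE3D. At S100A13, S100A1 and CHTOP the value was −0.94 in the control and −0.89 after CTCF siRNA, a difference of 0.04 ± 0.08. With flanks of 200 kb the boundary bins between CRNN and LCE5A changed by 0.25 and 0.13, close to the 0.24 and 0.13 with 400 kb. The neighbouring bins and the outer border did depend on the flank: with 200 kb the change was 0.49 in the bin of LCE5A and CRCT1, 0.45 in that of LCE3E and LCE3D and −0.37 in that of S100A1 and CHTOP. With flanks of 400 kb the S100A1 bin was the lowest of the region in the CTCF siRNA map. By this value the deepest dip of the complex thus lay at its left end in one map and at its right end in the other. Contacts across the S100A1 bin were still 1.30 times their expected number in the CTCF siRNA map, against 0.655 times across the bin of LCE3E and LCE3D.

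In all, 9 of the 63 bins rose by at least 0.5, or 14.3%, against 13.1% of bins genome-wide, so the region as a whole stood near the background. The 9 bins formed 2 unbroken runs, and the bins of a run share flanks and are not separate observations. The first run covered the end of the left flank and the S100A10 end, and the second lay in the LOR to PGLYRP4 stretch. No bin fell by at least 0.5, against 3.67% genome-wide, although 3 did with flanks of 200 kb. The lowest difference was −0.36, from 0.71 to 0.35, in the bin of SPRR1B, SPRR2D and SPRR2A. It was −0.75 with flanks of 200 kb and −0.16 with flanks of 800 kb. Contacts across that bin were 2.18 times their expected number in the control and 2.53 times after CTCF siRNA, although its insulation value was lower. The neighbouring SPRR3 bin, which had the highest value of the region in the control at 0.86, stood at 0.53.

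Contacts within the array were counted next. The control map held 4726 contacts within it, 1.21 times the expected number (95% interval 1.18 to 1.25), and the CTCF siRNA map 20471, or 1.19 times (1.18 to 1.21). The ratio of the maps was 0.984 (0.954 to 1.02), which spans 1. Windows of the same length on 21 chromosomes had a median of 0.987 in the control, and 96.8% of the 1387 windows lay below the array. The array thus held more inner contacts than most stretches of its length in the control, and no change was detectable at this depth. The windows were laid without regard to TADs. The 1826 control TADs on these chromosomes, of various lengths, had a median of 1.17 in the control, near the value of the array. Over these windows 0.0721% rose and 0% fell by at least 1.2-fold.

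Contacts with the neighbourhood differed more. In the control the array had 0.429 times the expected contacts with the left flank and 0.403 times with the right flank. After CTCF siRNA these were 0.827 and 0.630, which is a rise of 1.93-fold (1.70 to 2.19) and of 1.56-fold (1.31 to 1.88). Contacts are said to have risen or fallen where they differed by at least 1.2-fold and the interval left out 1. Contacts of the array with the S100A9 end rose 1.27-fold (1.19 to 1.36), from 0.88 to 1.1 times the expected number, and those with the S100A10 end had a ratio of 0.945 (0.858 to 1.04). The genes of that end differed, since contacts with the array rose 1.324-fold (1.104 to 1.60) for S100A10, while S100A11 had a ratio of 0.845 (0.753 to 0.95), which did not pass 1.2-fold.

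To set this beside the genome, the S100 end and flank on each side were joined and the same was done for every window, a comparison chosen after the values were seen. With its 560 kb on the left the array went from 0.712 to 0.912, a ratio of 1.28 (1.19 to 1.38), and with its 680 kb on the right from 0.773 to 1.01, a ratio of 1.3 (1.23 to 1.39). Of 1378 windows, 17.6% rose by at least 1.2-fold on the left and 16.5% on the right, and 87.9% and 91.0% had a lower ratio than the array. The array stood in the upper part of the windows on both sides.

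**Figure D2:**
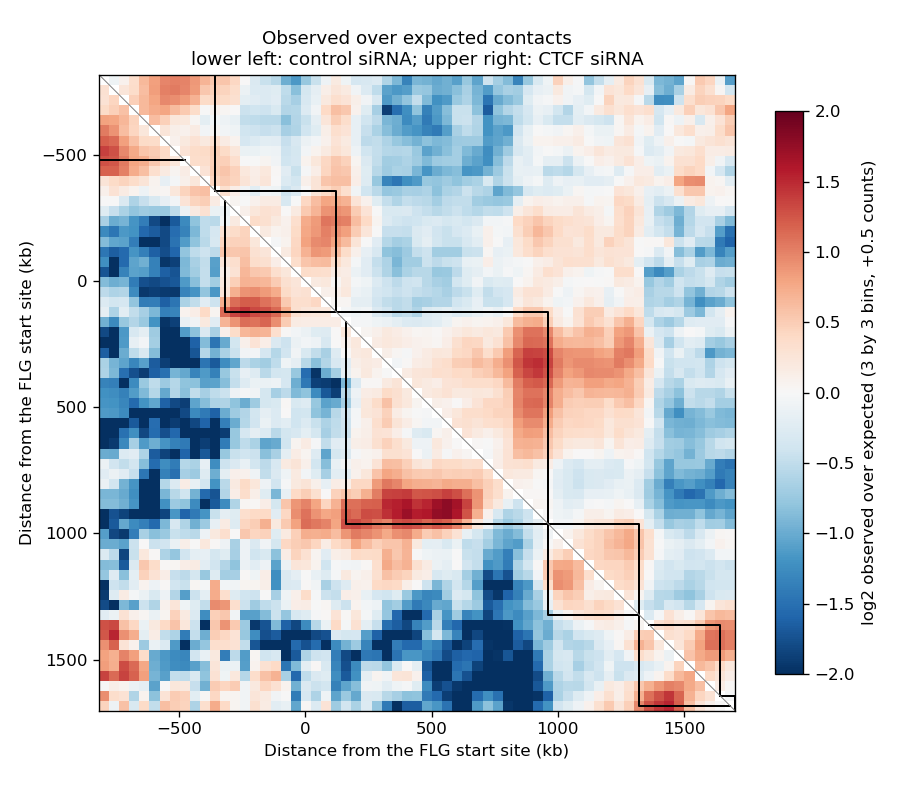
Observed over expected contacts (log2 colour scale, sums of 3 by 3 bins plus 0.5 counts) against distance in kb from the FLG start site on both axes, control siRNA below the diagonal and CTCF siRNA above it, with the TADs of each list in black. Dark blue blocks that separate the array from both flanks in the control are paler after CTCF siRNA, and the red block where LCE and early SPRR genes meet LOR to PGLYRP4 is present in both maps.

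Split by gene group, none of the 10 combinations within the array rose or fell, with ratios from 0.821 to 1.14. Such inner combinations were not counted along the genome. Of whole windows of the array length 0.0721% rose and 0% fell by at least 1.2-fold, so this is not shown to be particular to the array. The strongest inner contact joined the LCE genes with the LOR to PGLYRP4 stretch, which runs past the right edge of the middle TAD. This combination held 339 contacts in the control, 2.57 times the expected number. After CTCF siRNA it held 1910, 2.25 times, with a ratio of 0.877 (0.781 to 0.987). With the expected number from distance only this ratio was 1.31. The fused-type genes also met the LOR to PGLYRP4 stretch more than expected, across the inner boundary, at 1.58 in the control and 1.29 after CTCF siRNA (ratio 0.821, 0.675 to 1.01). With the LCE genes next to them they had only 0.821 and 0.850. The fused-type genes therefore met the far end of the array more, relative to distance, than the gene group beside them.

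Most of the single pairs of bins with the highest control values also reached into the LOR to PGLYRP4 stretch. Among the 22 pairs of the region at least 200 kb apart with at least 20 control contacts, 10 had 3 times the expected number or more. In 8 of these a bin of the LCE1, SMCP, IVL or SPRR1A genes met a bin of LELP1, LOR or PGLYRP3. The share of such pairs elsewhere in the genome was not counted. Asking for 20 contacts at these distances itself favours pairs above expectation. SMCP, a sperm mitochondrial protein gene that lies among the skin genes, met the bin of LELP1 and PRR9 44 times, 4.99 times the expected number, and IVL met the LOR bin 27 times, 3.36 times the expected number. The values after CTCF siRNA were 2.29 and 1.28. Pairs picked for a high value in one map tend to be lower in another, so this drop is given as a description.

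Of the 16 combinations of an array group with an end or flank, 10 rose and none fell. In the same layout laid along 21 chromosomes, a comparison added after the values were seen, 22.5% of 11245 combinations rose. The share that fell was not counted. The 16 combinations share bins and are not independent. The highest ratio was that of the SPRR genes, which went from 0.217 to 0.555 times the expected number with the right flank, a rise of 2.56-fold (1.69 to 4.05), and from 0.527 to 0.993 with the S100A9 end, a rise of 1.89-fold (1.62 to 2.21). The fused-type genes, next to the left border, went from 0.455 to 0.944 with the left flank, a rise of 2.07-fold (1.78 to 2.42). The LCE genes met the S100A9 end 1.05 times the expected number in the control and 1.57 times after CTCF siRNA, a rise of 1.49-fold (1.27 to 1.76), which left them above expectation. Between the LOR to PGLYRP4 stretch and the S100A9 end, which share a TAD in part, the ratio was 1.01 (0.924 to 1.103). With the expected number from distance only this last ratio was 1.64.

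**Figure D3:**
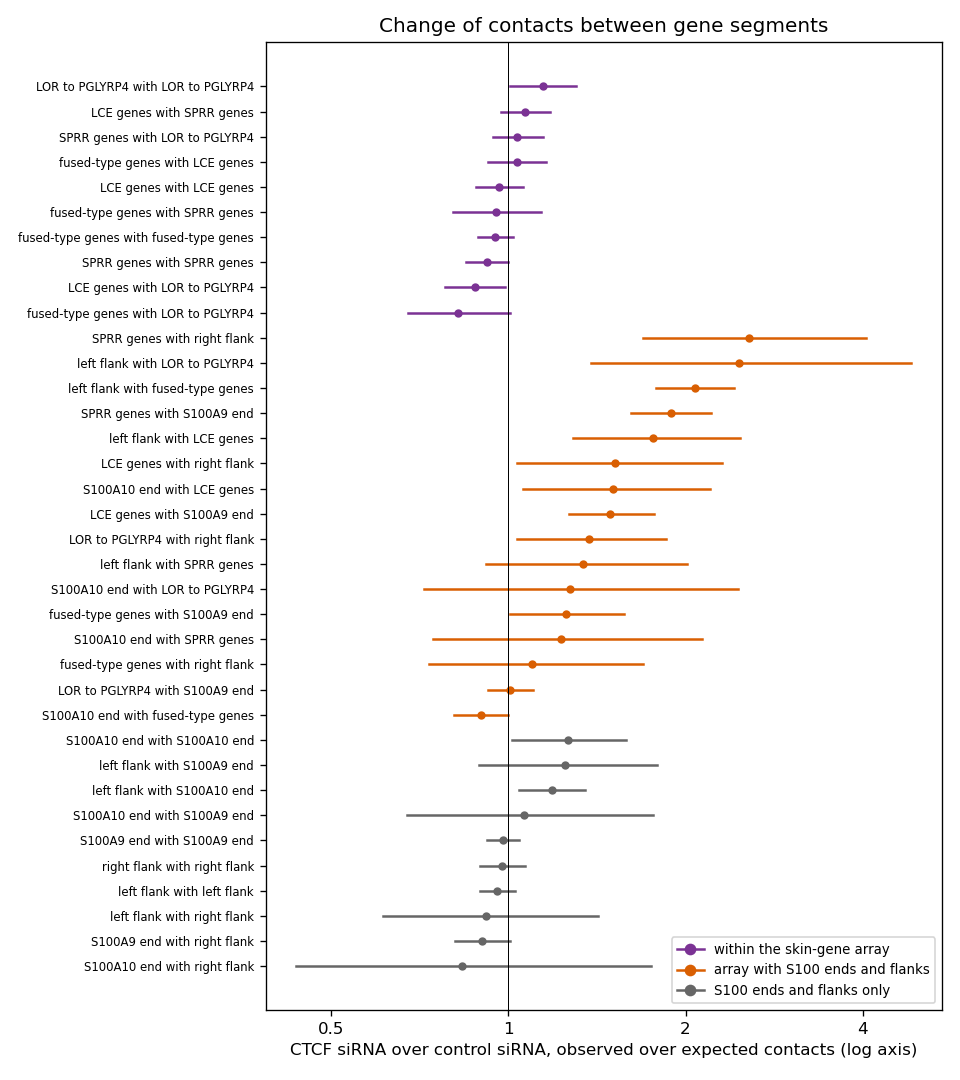
Ratio of observed over expected contacts in CTCF siRNA to those in control siRNA (log axis) for each pair of gene groups, with 95% counting intervals. Pairs within the array lie around 1 (0.821 to 1.14). Of the 16 pairs of an array group with an S100 end or flank, 10 lie at 1.2 or more with intervals above 1. In the same layout along 21 chromosomes 22.5% of such outer pairs did, and pairs within an array were not counted there.

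The S100 genes at the ends of the complex come from the same gene family, and few contacts joined them. The S100A10 end and the S100A9 end shared 21 contacts in the control and 171 after CTCF siRNA, which was 1.04 (0.641 to 1.58) and 1.102 (0.943 to 1.28) times the number expected at their distance. The ratio of 1.06 had an interval from 0.674 to 1.76, so neither an excess nor a change was detectable at this depth. Within the S100A9 end, where S100A7, S100A6 and S100A4 lie among others, contacts were 1.38 and 1.35 times the expected number. This ratio was 0.979 (0.919 to 1.04). With the expected number from distance only both ratios were higher, at 1.89 and 1.67.

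Contacts inside the 5 control TADs that overlap the region had ratios from 0.938 to 1.01, and none passed 1.2-fold, where 0% of 1826 control TADs on the 21 chromosomes rose and 6.13% fell. The corner of a TAD, where its first 3 bins meet its last 3, stood above expectation in all 5 TADs of both maps. It went from 1.88 to 1.81 in the TAD of the fused-type genes and from 2.28 to 2.23 in that of the LCE and SPRR genes and LOR. In the TAD of PGLYRP3 to CHTOP it went from 1.48 to 1.60. Over all 5 corners the ratio of the maps ran from 0.767 (0.543 to 1.11) to 1.14 (0.933 to 1.4), and every interval spanned 1. Corners were chosen for description after the values were seen. Corners of other TADs were not counted, so no share over the genome stands beside these 5. The control TADs were also called from the control map itself, so a corner above expectation there is not a separate result.

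The 10 genes were then compared by the side to which they turned, as the log2 of observed over expected contacts to the right over those to the left, each within 1 Mb. A value below 0 means that a gene met its left side more. In 5 of the 10 genes the intervals of the maps did not overlap, where this held for 27% of 4104 bins of chromosome 1, and in all 5 the value after CTCF siRNA was nearer to 0. That direction was common along the chromosome, where 911 of the 1108 bins with separate intervals were nearer to 0 and the median size went from 0.47 to 0.30. With the expected number from distance only some sizes were smaller: S100A10 had −0.65 in the control, S100A11 0.20 after CTCF siRNA and LOR −0.22 after CTCF siRNA. Others were larger, at 0.71 for S100A9 and 0.25 for IVL after CTCF siRNA. In the control S100A9 was smaller, at 0.85. Genes of 1 bin share its value with everything else in that bin, and neighbouring genes share contacts.

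S100A10 and S100A11, which lie side by side, turned away from each other. S100A10 (151955391 to 151966335, minus strand) met its left side, with −1.09 (−1.38 to −0.81) in the control and −0.57 (−0.68 to −0.47) after CTCF siRNA. S100A11 (152004982 to 152020383, minus strand), which codes for a partner of annexin A1, met its right side, with 1.41 (1.1 to 1.73) and 0.33 (0.21 to 0.45). S100A10 contacts with the fused-type genes rose 1.26-fold (1.03 to 1.56), from 0.708 to 0.895 times the expected number. The largest shift among the 10 genes was that of S100A11. Its contacts with the left flank rose 1.88-fold (1.41 to 2.56), from 0.558 to 1.05 times the expected number, and those with the fused-type genes fell to 0.808 (0.714 to 0.917), from 1.70 to 1.38.

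At the other end S100A9 and S100A8, the subunits of the neutrophil protein calprotectin, lie in neighbouring bins. S100A9 (153330330 to 153333499, plus strand) met its right side, away from the array, with 0.95 (0.72 to 1.17) in the control and 0.54 (0.46 to 0.63) after CTCF siRNA. Its contacts with the SPRR genes rose 1.78-fold (1.29 to 2.51), from 0.498 to 0.886 times the expected number, and those with the right flank rose too, 1.45-fold (1.04 to 2.05). S100A8 (153362508 to 153363549, minus strand), one bin further from the border, had 0.11 (−0.14 to 0.36) and 0.00 (−0.09 to 0.09). Both intervals of S100A8 span 0, but within 500 kb its values were 0.16 in the control and 0.17 after CTCF siRNA. Its contacts with the LCE genes rose 1.56-fold (1.02 to 2.5).

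Of the fused-type genes, HRNR, which codes for hornerin, and FLG, which codes for filaggrin, lie inside their TAD. HRNR (152184552 to 152196669, minus strand) had 0.51 (0.14 to 0.88) in the control and 0.47 (0.30 to 0.65) after CTCF siRNA, the latter −0.032 with the expected number from distance only. FLG (152274641 to 152297715, minus strand) had 0.13 (−0.12 to 0.38) and −0.17 (−0.31 to −0.04). Within 500 kb FLG had −0.20 in the control and −0.28 after CTCF siRNA. FLG met the LOR to PGLYRP4 stretch 33 times in the control, 2.21 times the expected number, and 80 times after CTCF siRNA, 1.08 times. This was a fall to 0.490 (0.323 to 0.759). HRNR had a ratio of 0.976 (0.379 to 3.20) with the same stretch, on 5 control contacts. With the left flank both genes rose, HRNR 2.02-fold (1.15 to 3.89) and FLG 1.62-fold (1.09 to 2.48).

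Among the genes of the envelope proteins, IVL, for the scaffold protein involucrin, and SPRR3 had intervals that span 0 in both maps. IVL (152881022 to 152884362, plus strand) had 0.08 (−0.20 to 0.36) in the control and 0.05 (−0.07 to 0.18) after CTCF siRNA, and SPRR3 (152974223 to 152976332, plus strand) had 0.09 (−0.28 to 0.46) and −0.05 (−0.26 to 0.17). SPRR1A (152956557 to 152958290, plus strand), for a small proline-rich cross-bridging protein, had 0.59 (0.30 to 0.88) and 0.08 (−0.03 to 0.20). LOR (153232163 to 153234600, plus strand), for loricrin, the main protein of the envelope, met its left side and thus the array, with −1.08 (−1.37 to −0.79) and −0.58 (−0.68 to −0.48).

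The partners of these genes differed between the maps too. IVL contacts with the LOR to PGLYRP4 stretch fell to 0.622 (0.488 to 0.798), from 2.44 to 1.52 times the expected number. With the same stretch SPRR1A had a ratio of 0.848 (0.670 to 1.09) and SPRR3 one of 0.876 (0.609 to 1.28), and both intervals span 1. SPRR1A contacts with the LCE genes rose 1.297-fold (1.01 to 1.69). IVL contacts with the S100A9 end rose 1.89-fold (1.24 to 3.0), from 0.639 to 1.21. SPRR3 met the S100A9 end 8 times in the control, 0.290 times the expected number, and 83 times after CTCF siRNA, 0.779 times, a rise of 2.69-fold (1.3 to 6.42). LOR rose with the S100A9 end as well, 1.39-fold (1.08 to 1.81), from 0.714 to 0.992, and it rose with the right flank 3.34-fold (1.27 to 12.5), on 4 control contacts. LOR also rose 1.21-fold (1.01 to 1.46) with its own stretch and fell to 0.787 (0.627 to 0.996) with the LCE genes. For SPRR1A the ratio with the S100A9 end was 1.2 (0.864 to 1.71), from 0.981 to 1.18, and its interval spans 1. These genes lie close together, so their values repeat in part the rise of the SPRR genes with the S100A9 end.

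Over the 10 genes and the 8 stretches, 79 ratios were formed, of which 18 rose and 5 fell. In the same layout along 21 chromosomes, added after the values were seen, 7.74% of 54063 ratios rose and 7.39% fell. The ratios are not independent, since genes share bins and stretches. The ratio of S100A10 and that of S100A11 with the S100A10 end are the same value, counted for both genes. Of the rises not yet given, S100A10 and S100A11 met each other more, with 47 contacts in the control and 445 after CTCF siRNA (1.64-fold, 1.22 to 2.27), and 3 rested on 1 or 2 control contacts: S100A10 with the SPRR genes, IVL with the right flank and LOR with the left flank. The remaining fall was that of SPRR3 with the other SPRR genes, to 0.817 (0.671 to 0.999).

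**Figure D4:**
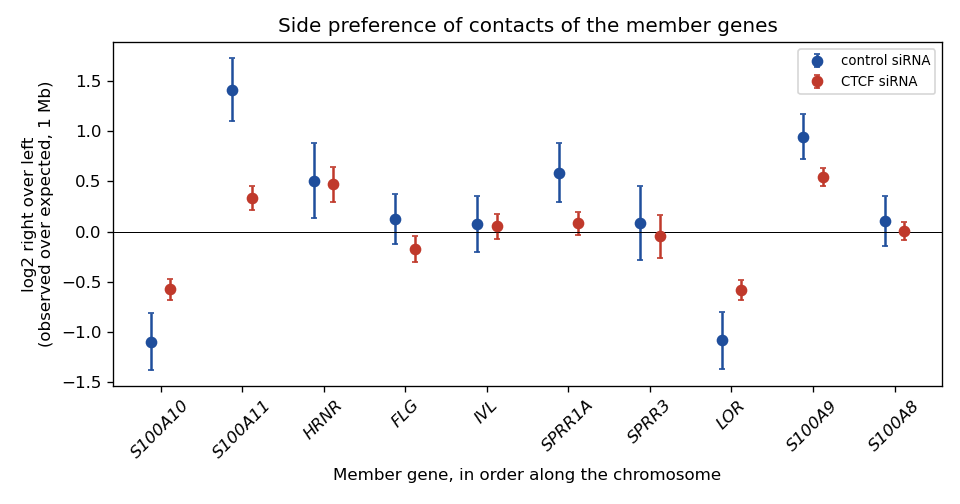
Side preference of the 10 genes, in order along the chromosome, as log2 of observed over expected contacts within 1 Mb to the right over those to the left, with 95% counting intervals, control siRNA in blue and CTCF siRNA in red. S100A10 and LOR lie below 0 and S100A11 and S100A9 above 0 in both maps, and all 4 lie nearer to 0 after CTCF siRNA, as did 911 of the 1108 bins of chromosome 1 whose intervals did not overlap.

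Last, contacts beyond 3 Mb on the long arm of chromosome 1 were sorted by the gene density of the partner, as observed over expected contacts with 842 gene-dense bins (9 to 48 protein-coding starts per Mb) over those with 841 gene-poor bins (0 to 4). The array had 0.964 (0.874 to 1.06) in the control and 1.05 (0.982 to 1.11) after CTCF siRNA, and both intervals span 1. Both values depended on the setting. The control had 0.857 when partners were sorted by GC content, and CTCF siRNA had 0.911 in that setting, 1.18 beyond 5 Mb and 1.27 with the expected number from distance only. The S100A9 end and both flanks met gene-dense bins more in both maps. The S100A9 end had 1.49 (1.23 to 1.80) and 1.29 (1.16 to 1.44), the left flank 1.55 (1.25 to 1.94) and 1.66 (1.47 to 1.87), and the right flank 1.45 (1.14 to 1.85) and 1.64 (1.44 to 1.87).

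The array's own genes are dense on average, at 35.9 protein-coding starts per Mb against 31.8 in the left flank and 16.7 at the S100A10 end. Within the array this ran from 15.9 in the fused-type genes to 61.1 in the LCE genes. The right flank had 38.9 and the S100A9 end 53.1. In preference for gene-dense bins the S100A10 end had 1.38 (0.979 to 1.98) in the control, where its interval spans 1. After CTCF siRNA it had 1.43 (1.16 to 1.76). Within the array the 4 gene groups lay between 0.925, in the SPRR genes, and 1.03, in the LOR to PGLYRP4 stretch, in the control. After CTCF siRNA the same groups marked the ends of the range, at 0.952 (0.842 to 1.08) and 1.16 (1.002 to 1.35). For each gene group and each S100 end and flank the intervals of the maps overlapped.

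**Figure D5:**
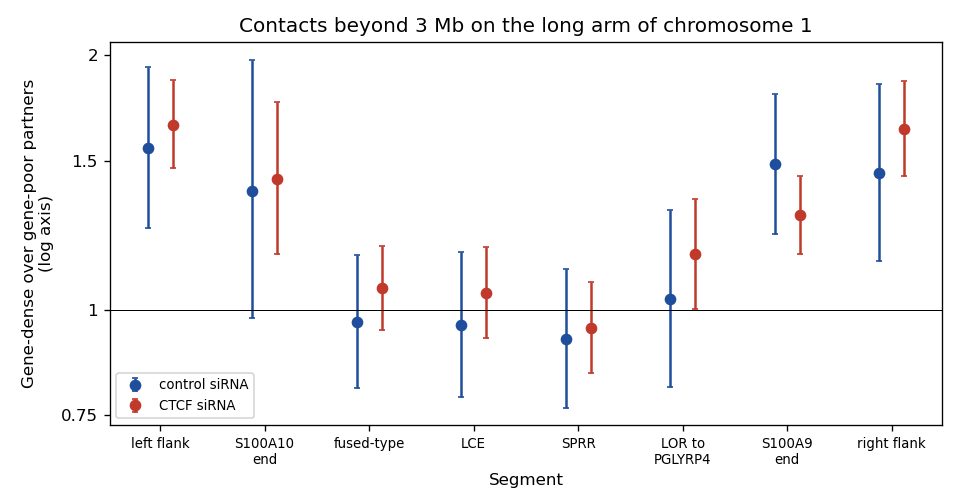
Contacts beyond 3 Mb with gene-dense over gene-poor bins of the long arm of chromosome 1 (log axis) for the 8 gene groups of the region, with 95% counting intervals, control siRNA in blue and CTCF siRNA in red. The fused-type, LCE and SPRR genes lie near 1 in both maps, and the flanks and the S100A9 end lie above 1 in both.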

How the data were processed

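The authors used the enzyme BglII, checked reads with FastQC 0.11.2, mapped them to hg19 with HiCUP and Bowtie 1.1.0, used SAMtools 1.2 and Picard 1.121, pooled the libraries of a condition and called TADs with a hidden Markov model on the directionality index. The deposited contact values were read-pair counts per pair of 40 kb bins, multiplied by a factor between positions 9400001 and 48120000 of every chromosome. Outside them 100% of the values were whole within 0.005. Only these bins were used, on the 21 chromosomes with at least 200 of them. The region lies outside.

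Bins with under 10% of the median count of their chromosome in either map were dropped. Contacts within a bin were left out. Facing TAD edges at most 100 kb apart were 1 boundary, and boundaries within 40 kb were shared. Insulation values used an expected number from distance, with at least 50% of bin pairs usable and a change of 0.5 called. Other contacts used distance and coverage, by 60 rounds of iterative balancing, with exact 95% Poisson intervals and conditional binomial intervals for ratios. Calculations ran in Python 3.11.15 with numpy 2.4.6, scipy 1.17.1 and pandas 2.3.3, and were tested on simulated data. Gene positions came from GENCODE on GRCh37, where LOR is listed as LORICRIN.

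The region, the gene lists and the tests were chosen with earlier results of these data known. Named were the 10 genes, the first genes of each group, genes in boundary bins and local minima, and the bins with the largest rise and fall. Any other gene named was chosen after its values were seen. One item of the left flank is not reported here.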

Additional observations from a re-analysis of the deposited data

How the results depend on the processing

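Of 336 values recomputed for 99 results under the alternatives, 264 stayed within their counting error or 1.5 times the count, 69 moved beyond it and 3 values larger than their counting error changed direction. Where boundaries had to touch to count as shared, 3 control boundaries were lost and 2 CTCF siRNA boundaries gained, in place of 1 and 0, and with facing edges joined within 400 kb 0 were lost. With flanks of 200 kb, 3 bins fell by at least 0.5, in place of 0, and the change at S100A16, S100A14 and S100A13 was −0.079 in place of 0.17. The rise at S100A10 stayed between 1.01 and 1.18 and that at PGLYRP3 between 0.60 and 0.94.

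With the expected number from distance only, which leaves the uneven gain in coverage in the ratio, the ratio of the maps was 1.06 within the array, 1.1 between the array and the S100A10 end, 1.88 with the S100A9 end, 1.67 within the S100A9 end and 1.89 between both S100 ends. In that setting the LCE genes with the LOR to PGLYRP4 stretch turned from 0.877 to 1.31, HRNR after CTCF siRNA turned from 0.47 to −0.032, and the preference for gene-dense bins after CTCF siRNA was 1.55 at the S100A9 end and 1.27 in the array. With partner bins sorted by GC content the array had 0.857 in the control and 0.911 after CTCF siRNA, and beyond 5 Mb 1.18 after CTCF siRNA. The cause was not tested.

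No paired analysis was possible because only 1 pooled map per condition is at hand, and no library was left out for the same reason. Depth limits the pairs of distant stretches most, such as the 21 control contacts between the S100 ends.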
